A study of Arabidopsis thaliana with 4 samples.

Results

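The 10 genes described here are meiosis genes of *Arabidopsis thaliana*, chosen by name from what they are known to do: *REC8* (*SYN1*, AT5G05490), *SWI1* (*DYAD*, AT5G51330), *ASY1* (AT1G67370), *ZYP1a* (AT1G22260), *ZYP1b* (AT1G22275), *SPO11-1* (AT3G13170), *DMC1* (AT3G22880), *SDS* (AT1G14750), *TAM* (*CYCA1;2*, AT1G77390) and *OSD1* (AT3G57860). All 10 had a row among the 24750 genes listed. The choice rests on their names and known roles and uses no value of the count tables, although earlier results of these data were known when it was made. Their level was read in native polyadenylated RNA by Oxford Nanopore direct RNA sequencing (ONT DRS), in which each RNA molecule is passed through a pore without being copied to cDNA.

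Floral buds (2 biological replicates) were cut at growth stage 6.0 to 6.1 from plants that had grown for 3 weeks in soil after transplanting. Seedlings (2 biological replicates, about 1 g of plants each) were harvested from plates at the age of 14 days. Both stages were wild-type col-0 plants under the same day length, with no treatment other than their growth. Each replicate pooled plants, and whole buds were used rather than anthers or sorted cells, so fewer meiotic cells and less RNA per cell cannot be told apart in these values. Stage also went with age and with soil against plate.

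Meiosis is the pair of divisions that reduces the chromosome set, and in flowers it takes place in the male meiocytes of the anther and in the female meiocyte of the ovule. Sister chromatids are first tied together by cohesin and arranged along a protein axis, programmed DNA breaks are made and repaired on the homologous chromosome, and the synaptonemal complex joins the paired homologues. Specific cyclins and inhibitors of protein degradation then carry the cell through both divisions.

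The deposited values were estimated counts per gene, and after rounding the floral bud libraries held 796885 and 669401 of them and the seedling libraries 579416 and 620120. A gene listed at 0 could have had up to 3 counts, which equal 3.73 and 4.23 normalized CPM (counts scaled to a common library size) in the floral bud libraries and 5.28 and 5.07 in the seedling libraries. Limits and exact intervals given here cover counting error only. Intervals of log2 fold changes were derived from the fitted comparison of the stages, which also models variation between replicate libraries. That variation was estimated over the tested genes together, so an interval does not reflect a gene's own spread between replicates. The tissue labels were checked with marker genes. The 5 floral organ identity genes *AP1*, *AP3*, *PI*, *AG* and *SEP3* summed to 1172 and 1081 normalized CPM in floral buds and to 10.6 and 5.07 in seedlings, and all 5 were called higher in floral buds, which here means an adjusted p below 0.05 and a fold change above 2.

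Most of the meiosis genes had few or no counts in either stage. *DMC1*, with 32 estimated counts over the libraries, was near the median of all genes listed (30 counts), and *OSD1* had 19. Of the 10 genes, 2 were listed at 0 in every library (20%, against 16.54% of all genes listed). A total of 6 had at most 3 counts in every library (60%, against 27.58% of all genes). Summed over the 10 genes, the estimated counts were 20.4 and 24.0 in floral buds, against 24.8 and 11.8 in seedlings. On the scale of normalized CPM the sums were 24.9 and 33.8 in floral buds, against 45.8 and 20.3 in seedlings. Both floral bud values lay between the seedling values on that scale, so the summed level of these genes did not set the stages apart. Counts above 0 were found for 6 of the genes in each floral bud library and for 5 in each seedling library.

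**Figure D1:**
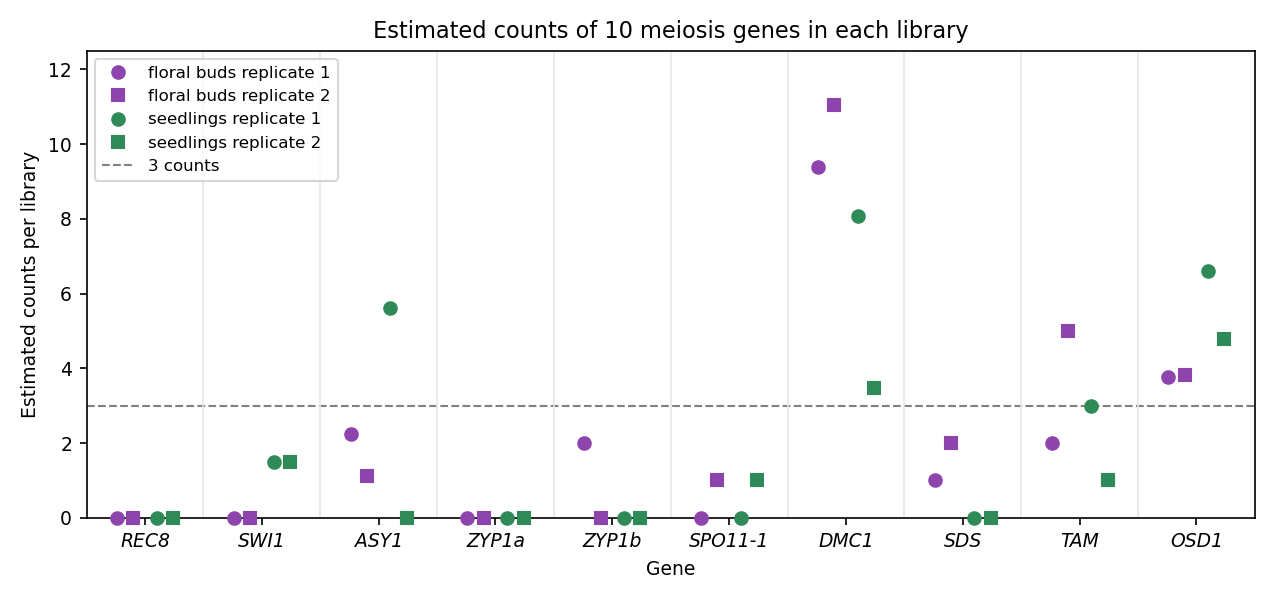
Estimated counts (vertical axis) of the 10 meiosis genes (horizontal axis) in floral buds replicates 1 and 2 (purple) and seedlings replicates 1 and 2 (green), with the line of 3 counts dashed. *REC8* and *ZYP1a* lay at 0 in all 4 libraries, and *DMC1* reached the highest value, 11.04 counts in floral buds replicate 2.

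Among the genes of sister chromatid cohesion, *REC8* encodes the meiosis-specific kleisin, the subunit that closes the cohesin ring and keeps sister centromeres together through the first division. It lies on the plus strand at chr5:1624206-1629269 (RefSeq annotation of TAIR10.1, as for all positions here), with 2 annotated transcripts of 20 to 21 exons. *REC8* was listed at 0 in both floral bud libraries and in both seedling libraries. Its first 65 bp overlap the start of the protein-coding gene AT5G05480 on the opposite strand, for which floral buds gave 8.48 and 3.03 estimated counts and seedlings 4.24 and 4.24. *SWI1*, which protects meiotic cohesin and is needed for the axis to form, lies on the minus strand at chr5:20858503-20861711 and has 2 transcripts of 7 to 8 exons. *SWI1* was at 0 in both floral bud libraries, against 1.5 and 1.5 estimated counts in seedlings. Its few counts thus came from seedlings and not from floral buds, but both stages were under the limit of 3 counts and no fold change is given.

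The chromosome axis and synaptonemal complex are represented by *ASY1* and the *ZYP1* pair. *ASY1* encodes the HORMA-domain protein of the axis that promotes pairing and exchange between homologues. The gene is on the minus strand at chr1:25239117-25243837, with 1 transcript of 22 exons. It had 2.25 and 1.12 estimated counts in floral buds, against 5.62 and 0 in seedlings. The seedling libraries thus gave both the highest and the lowest value. All of the *ASY1* values were multiples of 1.125 and they summed to 9 counts over the libraries. From 3 rounded counts in floral buds and 6 in seedlings, the ratio of floral buds over seedlings was 0.383, with an exact 95% counting interval of 0.062 to 1.79.

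The antisense lncRNA gene AT1G67365 overlaps the last 214 bp of *ASY1* (4.53% of its span), with 7 and 3 estimated counts in the floral bud libraries against 7 and 6 in those of seedlings. The authors' code joined reads to genes without regard to strand, so reads of the 2 genes cannot be told apart there. The part of the lncRNA in the *ASY1* values was not tested.

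*ZYP1a* and *ZYP1b* encode the near-duplicate proteins of the transverse filament, the zipper-like element that bridges paired homologues. They lie close together on chromosome 1, *ZYP1a* on the minus strand at chr1:7859630-7865263 and *ZYP1b* on the plus strand at chr1:7867067-7872715. Each has 3 annotated transcripts, with 16 to 19 exons in *ZYP1a* and 11 to 19 in *ZYP1b*. *ZYP1a* was listed at 0 in all 4 libraries. *ZYP1b* had 2 and 0 estimated counts in floral buds, against 0 and 0 in seedlings. Both stages were under the limit of 3 counts for both genes. The gene that lies between them, AT1G22270, gave 71.8 and 53.0 estimated counts in the floral bud libraries against 50.8 and 58.3 in those of seedlings.

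The coding sequences of the pair were aligned to see how far single reads could tell the copies apart. They differed at 178 of 2556 aligned bases (93.0% identity), and the predicted proteins of 871 amino acids for *ZYP1a* and 856 for *ZYP1b* were 89.2% identical. The longest transcripts were 89.6% identical, below the limit of 95% used for near-identical copies. The stretch of 60 coding bases with the most differences, in which 14 bases differ, is printed first, and the last 60 coding bases, in which 1 base differs, after it. Capitals mark the bases that differ between the copies. The first stretch spans an intron, at chr1:7860225-7860681 in *ZYP1a* and chr1:7871593-7872001 in *ZYP1b*, and the second lies within the last coding exon, at chr1:7860160-7860219 and chr1:7872007-7872066, all in TAIR10.1 and read on the strand of the gene.
ZYP1a, most different stretch: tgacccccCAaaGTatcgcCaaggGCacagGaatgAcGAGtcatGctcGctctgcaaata
ZYP1b, most different stretch: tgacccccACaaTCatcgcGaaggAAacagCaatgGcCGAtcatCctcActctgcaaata
ZYP1a, end of the coding sequence: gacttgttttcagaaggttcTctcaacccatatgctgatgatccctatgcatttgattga
ZYP1b, end of the coding sequence: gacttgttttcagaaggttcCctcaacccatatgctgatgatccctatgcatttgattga
The most different stretch lies just before the end of the coding sequence in both genes. How the authors' aligner placed reads of the pair was not tested.

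**Figure D2:**
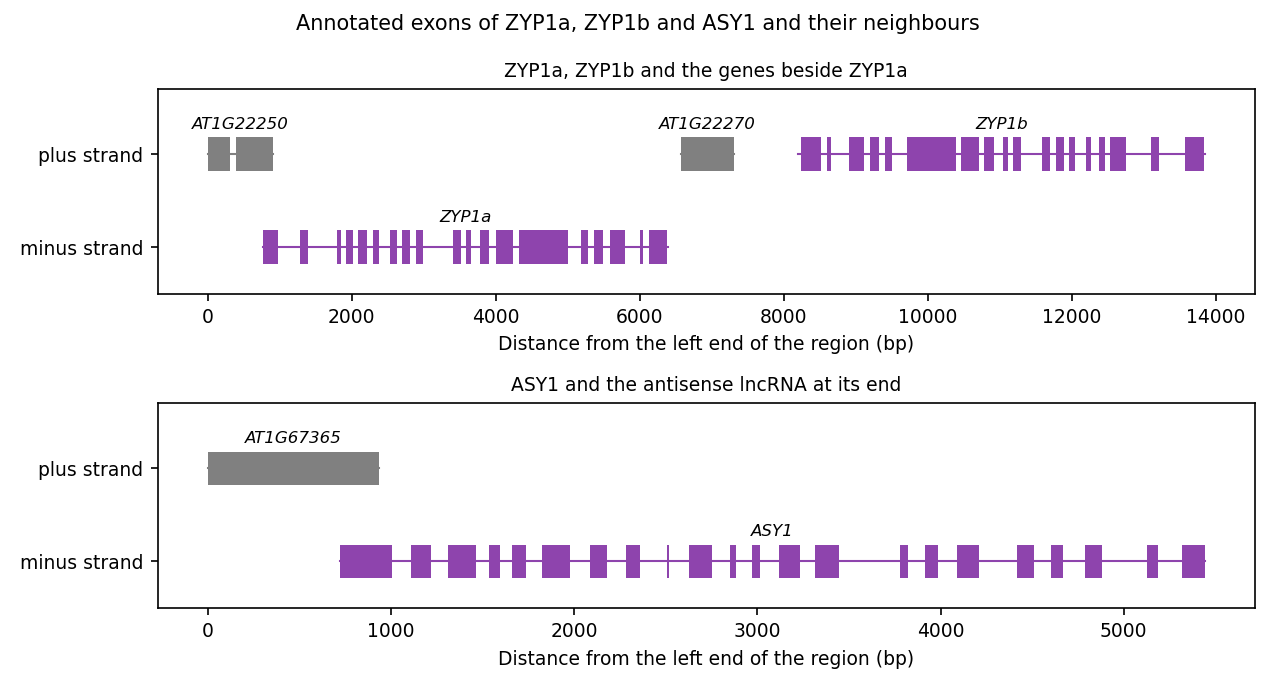
Annotated exons (boxes) and introns (lines) of *ZYP1a*, *ZYP1b* and *ASY1* (purple) and of genes beside them (grey), by strand, against distance in bp from the left end of each region. *ZYP1a* and *ZYP1b* point away from each other with AT1G22270 between them, *ZYP1a* overlaps AT1G22250 by 137 bp, and AT1G67365 overlaps *ASY1* by 214 bp.

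Break formation and strand exchange are represented by *SPO11-1* and *DMC1*. *SPO11-1* encodes a subunit of the topoisomerase-like complex that makes the programmed breaks. It lies on the minus strand at chr3:4231395-4234206, with 3 transcripts of 12 to 15 exons. *SPO11-1* had 0 and 1 estimated counts in floral buds, against 0 and 1 in seedlings. The 2 stages gave the same counts, both under the limit of 3 counts. The gene shares 14 bp with AT3G13160 on the same strand, for which floral buds gave 32.2 and 10.9 estimated counts and seedlings 8.93 and 10.9. Its partner in the complex, *SPO11-2*, was at 0 in all libraries.

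*DMC1* encodes the meiosis-specific recombinase that carries broken ends to the homologue, and it was the member with the most counts. It lies on the minus strand at chr3:8097678-8100932, with 2 transcripts of 14 to 15 exons. *DMC1* had 9.40 and 11.04 estimated counts in floral buds, against 8.08 and 3.48 in seedlings. Both floral bud values were above both seedling values in estimated counts. After scaling for library size *DMC1* had 11.2 and 15.5 CPM in floral buds, against 14.1 and 5.07 in seedlings, and the groups overlapped. The means were 13.3 ± 3.05 CPM in floral buds and 9.58 ± 6.38 in seedlings (SD, n = 2 each).

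The log2 fold change of *DMC1* was 0.47 (SE 0.655, 95% interval -0.81 to 1.76), with an edgeR adjusted p of 0.680. From 20 rounded counts in floral buds and 11 in seedlings, the counting ratio was 1.39 (exact 95% interval 0.636 to 3.22). The direction rested on 1 library, since the log2 fold change was -0.09 without seedlings replicate 2.

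The stretch of *DMC1* that encodes the Walker A motif, the phosphate-binding loop by which the recombinase binds ATP, is shown because the enzyme depends on it, and its coding bases are in capitals. It lies at chr3:8099265-8099401 (TAIR10.1, minus strand), where it spans an intron.
DMC1, Walker A stretch: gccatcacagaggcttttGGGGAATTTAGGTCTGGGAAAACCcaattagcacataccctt
The search for near-identical transcripts found no match for *DMC1* at the limits used.

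The meiotic cell cycle is represented by *SDS*, *TAM* and *OSD1*. *SDS* encodes a meiosis-specific cyclin-like protein needed for homologue pairing and for exchange through *DMC1*. It lies on the minus strand at chr1:5079226-5082536, with 4 transcripts of 6 to 8 exons. *SDS* had 1 and 2 estimated counts in floral buds, against 0 and 0 in seedlings. Both floral bud values were above both seedling values, but neither stage passed the limit of 3 counts in any library, and a difference was not detectable at this depth.

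*TAM* encodes the A-type cyclin that drives the passage from the first to the second division. It lies on the minus strand at chr1:29081654-29084285, with 1 transcript of 10 exons. *TAM* had 2 and 5 estimated counts in floral buds, against 3 and 1 in seedlings, and the groups overlapped. In normalized CPM the means were 4.77 ± 3.22 in floral buds and 3.49 ± 2.54 in seedlings (SD, n = 2 each). The log2 fold change of *TAM* was 0.41 (SE 1.12, 95% interval -1.79 to 2.61), with an edgeR adjusted p of 0.853. Its direction also rested on single libraries, with log2 fold changes of -0.47 without floral buds replicate 2 and -0.18 without seedlings replicate 2. The mitotic relative *CYCA1;1*, whose coding sequence is 63.1% identical to that of *TAM*, had 19.3 and 11.1 estimated counts in floral buds, against 6.97 and 1.64 in seedlings. The log2 fold change of *CYCA1;1* was 1.32 (edgeR adjusted p = 0.112). Without seedlings replicate 1 it was 2.47 and the gene was called (adjusted p = 0.0448), while it was 0.66 without seedlings replicate 2 (adjusted p = 0.591) and 0.99 without floral buds replicate 1 (adjusted p = 0.481).

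*OSD1* encodes an inhibitor of the anaphase-promoting complex that is needed to enter the second division. It lies on the plus strand at chr3:21426285-21428340, with 1 transcript of 3 exons. *OSD1* had 3.78 and 3.83 estimated counts in floral buds, against 6.61 and 4.78 in seedlings. Both floral bud values were below both seedling values, and this was also so in normalized CPM, with 4.97 and 5.64 in floral buds against 12.3 and 8.45 in seedlings. The means were 5.31 ± 0.469 CPM in floral buds and 10.4 ± 2.74 in seedlings (SD, n = 2 each). The log2 fold change of *OSD1* was -0.95 (SE 0.801, 95% interval -2.52 to 0.62), with an edgeR adjusted p of 0.444. From 8 rounded counts in floral buds and 12 in seedlings, the counting ratio was 0.510 (exact 95% interval 0.181 to 1.36), so the order of the stages did not exceed counting error. Its paralog *UVI4*, which restrains the same complex in somatic cells, had 4.96 and 5.86 estimated counts in floral buds, against 1.39 and 1.79 in seedlings, with a log2 fold change of 1.43 (edgeR adjusted p = 0.364). The difference between the fold changes of *OSD1* and *UVI4* was not tested.

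The comparison of floral buds with seedlings was fitted over the 18647 genes that reached a sum of 5 counts, and 4 of the 10 meiosis genes were among them: *ASY1*, *DMC1*, *TAM* and *OSD1*. None of the 4 was called, against a background of 10.3% of tested genes called higher and 9.52% called lower in floral buds. The quasi-likelihood test of edgeR gave 0 of the 4 an unadjusted p below 0.05, against 6292 of all 18647 tested genes. DESeq2 called 0 of the 4 and limma-voom 0. The log2 fold change of *ASY1* was -1.32 (SE 1.24, 95% interval -3.76 to 1.12, edgeR adjusted p = 0.510). Each of the 4 intervals covered 0 and also a fold change of 2 in at least 1 direction, so that the test does not show that these genes had the same level in both stages. An exact permutation test of 2 against 2 libraries cannot give a p below 0.33. With no filter on low counts, 8 of the 10 genes could be fitted and 0 were called. The only unadjusted p below 0.05 was that of *SWI1*, which was at 0 in floral buds (edgeR adjusted p = 0.158). Its 1.5 and 1.5 estimated counts in seedlings entered that fit rounded up to 2 and 2. Unrounded counts were not fitted without the filter.

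Levels were compared between genes in normalized CPM per kb of the longest annotated transcript. In floral buds *DMC1* had the highest level, 8.91 ± 2.04 CPM per kb, followed by *OSD1* at 3.80 ± 0.336 and *TAM* at 2.76 ± 1.87 (SD, n = 2). The gap from *DMC1* to *OSD1* exceeded the sum of their SDs, and no gap between later neighbours did. Both floral bud values of *OSD1* rounded to 4 counts, so its SD is smaller than its counting error. The exact 95% counting intervals over both floral bud libraries overlapped, at 8.33 to 21.07 CPM for *DMC1* and 2.355 to 10.75 CPM for *OSD1*, without division by length. *ASY1*, *SDS*, *SPO11-1* and *ZYP1b* had between 0.908 and 0.406 CPM per kb, with no order beyond their spread. A direct RNA read stands for a molecule whatever its length, and in CPM without division by length *SDS* (2.03) came before *ASY1* (1.95) and *ZYP1b* (1.24) before *SPO11-1* (0.705) in floral buds. In seedlings the order began with *OSD1* at 7.45 ± 1.96 and *DMC1* at 6.40 ± 4.26 CPM per kb, which did not differ beyond their spread. *ASY1* and *TAM* followed at 2.46 ± 3.48 and 2.02 ± 1.47 CPM per kb, again within their spread. *SWI1* and *SPO11-1* came next, both under the limit of 3 counts, and are not ranked.

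A list of 75 further meiosis genes, from cohesion to the regulators of entry, was read beside the 10. Of the 71 with a row, 10 were listed at 0 in every library, and among these were *MSH4*, *MSH5*, *MER3* and *ZIP4*, which stabilize crossover intermediates. The other 4, *MTOPVIB* and *PRD1*, which act in break formation, and *MMD1* and *AML3*, were not analysed here. A total of 49 genes were tested, of which 3 were called higher and 1 lower in floral buds, with a median log2 fold change of 0.40 against 0.06 over all tested genes. The calls made up 6.12% (higher) and 2.04% (lower) of the tested genes of the list, against 10.3% and 9.52% of all tested genes.

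The genes called higher were *ASY4*, *SMC3* and *PANS1*. *ASY4*, a coiled-coil protein of the meiotic axis that works with *ASY1*, had 12.9 and 6.28 estimated counts in floral buds, against 0.852 and 0 in seedlings. Its counting ratio of floral buds over seedlings was 14.6 (exact 95% interval 2.31 to 604.4, from 19 rounded counts in floral buds and 1 in seedlings), with an edgeR adjusted p of 0.0082. *SMC3*, a core subunit of cohesin in all dividing cells, had 22.3 and 6.94 estimated counts in floral buds, against 0 and 5.75 in seedlings (log2 fold change 1.84, SE 0.688, adjusted p = 0.0346). *PANS1*, which protects cohesion in mitosis and meiosis, had 28.8 and 30.4 estimated counts in floral buds, against 11.4 and 6.46 in seedlings (log2 fold change 1.40, SE 0.465, adjusted p = 0.0144). The gene called lower was *MRE11*, a nuclease of general break repair, with 0 and 0 estimated counts in floral buds, against 0.481 and 9.52 in seedlings. Nearly all counts of *MRE11* came from seedlings replicate 2, and seedlings replicate 1 was itself under the limit of 3 counts, so no fold is given.

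Each of these calls was lost when a single library was left out. *ASY4* was not called without floral buds replicate 1 or without seedlings replicate 2 (log2 fold changes 3.03 and 2.69), nor *SMC3* without floral buds replicate 1 or seedlings replicate 1 (0.92 and 0.88). *PANS1* was not called without floral buds replicate 2 or seedlings replicate 2 (1.26 and 1.00), and without seedlings replicate 2 *MRE11* did not pass the count filter. DESeq2 and limma-voom called none of these genes.

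**Figure D3:**
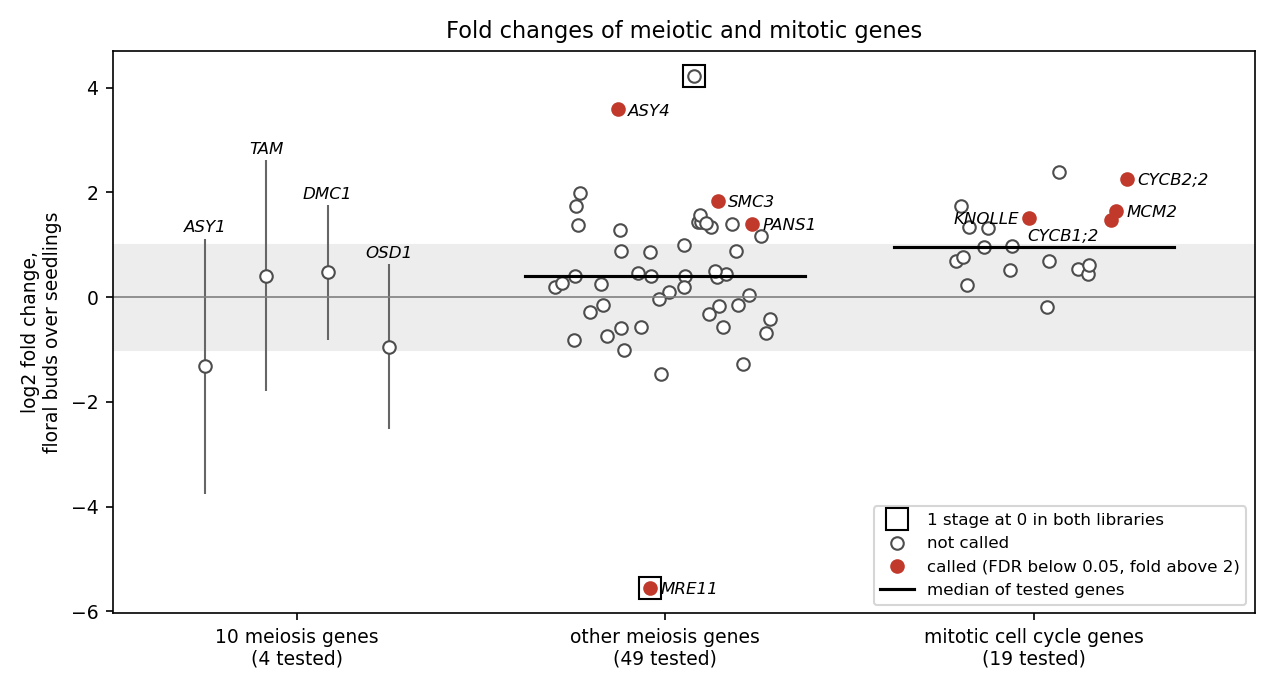
Log2 fold change of floral buds over seedlings (vertical axis) of the tested genes of 3 lists, with 95% intervals for the 4 tested meiosis genes, the range of fold changes below 2 in grey, and called genes in red. The intervals of *ASY1*, *TAM*, *DMC1* and *OSD1* all cross 0, and the squares mark genes at 0 in both libraries of a stage, whose fitted values depend on the prior count.

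Genes of the mitotic cell cycle were read beside them, since cells divide in both stages. Of 21 genes on that list 20 had a row, none was at 0 in every library, and 19 were tested. In floral buds 4 were called higher (21.1% of those tested, against 10.3% of all tested genes) and 0 lower, while DESeq2 and limma-voom called 0 in either direction. An unadjusted edgeR p below 0.05 was found for 7 of the 19, a share near that of all tested genes (6292 of 18647). All 7 had a positive log2 fold change. A positive log2 fold change was found for 18 of the 19, against 9836 of the 18647. The median was 0.96, against 0.06 over all tested genes. The summed level of the mitotic list was 489.9 and 411.5 normalized CPM in floral buds, against 251.9 and 214.7 in seedlings, so the groups did not overlap. The called genes were *KNOLLE*, the syntaxin of the cell plate (log2 fold change 1.51, SE 0.425, edgeR adjusted p = 0.0027), the B-type cyclins *CYCB1;2* (1.48, SE 0.472, adjusted p = 0.0103) and *CYCB2;2* (2.26, SE 0.772, adjusted p = 0.0177), and *MCM2*, a subunit of the replicative helicase (1.64, SE 0.595, adjusted p = 0.0273). Each of the 4 lost its call without seedlings replicate 2, *CYCB1;2* also without floral buds replicate 1, *MCM2* also without floral buds replicate 2, and *CYCB2;2* also without floral buds replicate 2 or seedlings replicate 1. The log2 fold changes without seedlings replicate 2 were 1.00 for *KNOLLE*, 1.27 for *CYCB1;2*, 2.23 for *CYCB2;2* and 1.20 for *MCM2*.

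Markers of the cells around meiosis were read in the same libraries. Among genes of sporogenous cells and the early anther wall, *SPL*, which is needed for sporogenous cells to form, had 19.7 and 12.3 estimated counts in floral buds, against 0 and 0 in seedlings. *SPL* was at least 4.03-fold higher in floral buds. Its list summed to 47.2 and 29.6 normalized CPM in floral buds and 24.7 and 33.8 in seedlings, since *TPD1*, the ligand of the receptor *EMS1*, was called lower while *SPL* and *EMS1* were called higher. The tapetum, the layer that feeds the meiocytes and later the pollen, was represented by 7 genes, of which 5 were tested and 4 called higher. These 7 genes summed to 662.7 and 445.3 normalized CPM in floral buds and to 1.76 and 0 in seedlings. Nearly all of the floral bud sum came from *A9*, *LAP5* and *LAP6*, with means of 316.1, 107.0 and 118.2 normalized CPM. The transcription regulators of the list were low in floral buds, with *DYT1* at 0 in all libraries, 0.875 and 4.12 estimated counts of *AMS* and 2.67 and 1.33 of *MYB80*, neither of which was called, and 5 and 5 of *MS1*, which was called higher. Of 8 genes of pollen after meiosis with a row, 7 were called higher and *DUO1* was at 0, and the 8 summed to 880.2 and 841.2 normalized CPM in floral buds and to 0 and 0 in seedlings. The floral bud libraries thus held RNA of these 3 tapetum genes and of pollen genes well above the counting limit, beside 24.9 and 33.8 normalized CPM for the 10 meiosis genes together. Markers of green tissue and root (*CAB1*, *LHCB3* and *PYK10*) were called lower in floral buds, with sums of 3683 and 3464 normalized CPM in floral buds against 20947 and 21428 in seedlings. The part of this makeup in the levels of the meiosis genes was not tested.

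**Figure D4:**
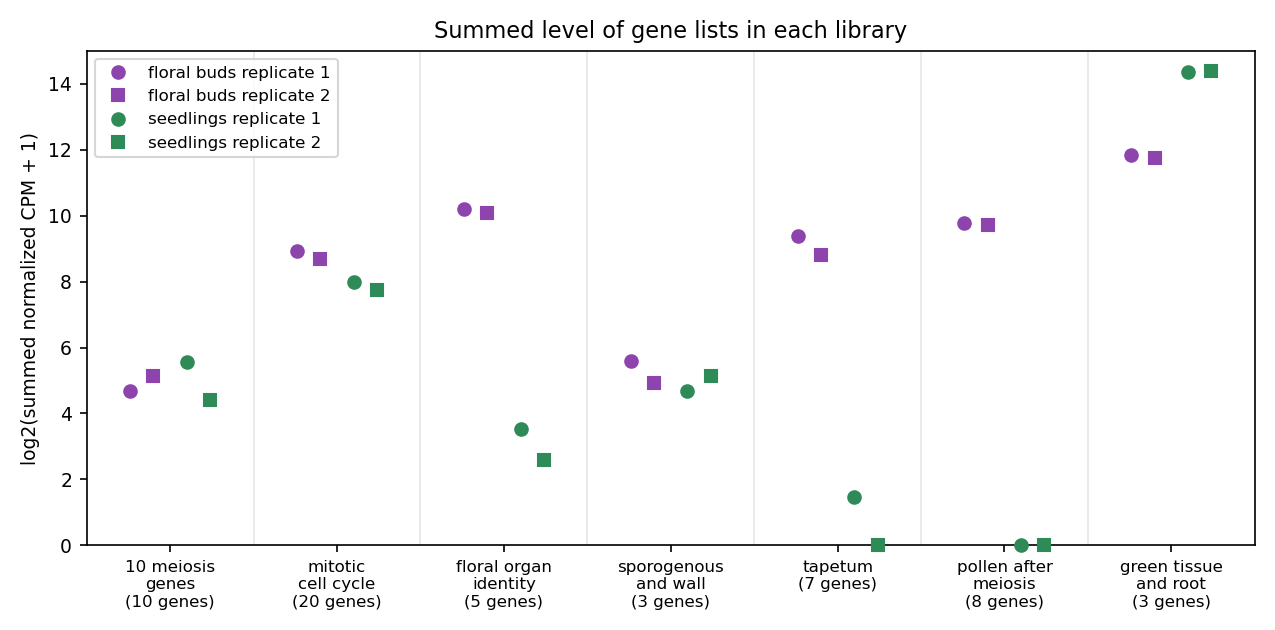
Summed level of 7 gene lists in each library, as log2 of the summed normalized CPM plus 1 (vertical axis), for floral buds (purple) and seedlings (green). The 10 meiosis genes and the sporogenous list overlap between the stages, and the floral organ, tapetum and pollen lists lie far higher in both floral bud libraries.

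The promoters of the 10 genes, taken as the 250 bp before the annotated start, were searched on both strands for 5 motifs. The E2F site (TTTCCCGC, TTTGGCGC, TTTCGCGC or TTTGCCGC), bound by regulators of DNA replication genes, was found in 2 of the 10 promoters (*ZYP1a* and *TAM*), against 1.4% of the 27443 promoters of protein-coding genes. The core AACGG of the mitosis-specific activator element was in 7 of the 10 promoters, against 20.6% of promoters. The G-box CACGTG was in 3 (6.5% of promoters), the site II element TGGGCC in 1 (13.7%) and the TATA box TATAAA in 6 (47.3%). A site II match and an AACGG match of *SPO11-1* overlap each other. The window before *REC8* lies at the start of AT5G05480, which overlaps the first 65 bp of *REC8* on the opposite strand. The window before *ZYP1a* reaches into AT1G22270, which lies 171 bp away on the opposite strand. To which gene of each pair the matches belong was not tested. The 2 windows with an E2F site are printed, as the rarest of these matches, on the strand of the gene with the site in capitals, from chr1:29084393-29084452 and chr1:7865264-7865323 (TAIR10.1, minus strand).
TAM promoter: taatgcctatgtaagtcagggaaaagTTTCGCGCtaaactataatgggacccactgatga
ZYP1a promoter: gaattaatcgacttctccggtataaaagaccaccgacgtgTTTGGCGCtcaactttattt
The site lies 141 bp before the start of *TAM* and 20 bp before that of *ZYP1a*. These matches describe the sequence only, and the 2 genes differed in counts, with 11 counts over the libraries for *TAM* and 0 for *ZYP1a*.

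The genes whose levels were most like the mean of the 10 were sought as the smallest Euclidean distance of log2(CPM + 1) over the 4 libraries. The first 5 at the smallest distance, tied at 0.417, were AT1G03700, *YUC3* (AT1G04610), AT1G11500, AT1G51270 and *VND1* (AT2G18060). Genes with the same rounded counts tie, and ties were cut by the order of listing, so other tied genes would be just as near. Each had about 1 estimated count in every library, between 0.667 and 1.44, so the likeness is that of genes near the counting limit in both stages.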

How the data were processed

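RNA of 2 floral bud and 2 seedling samples was sequenced by ONT DRS. The authors called bases with Guppy, aligned reads to the TAIR10 genome with Minimap2 2.17 (per the submitters' processing notes) and assigned them to genes with TrackCluster, and the deposited values are estimated counts per gene, without normalization. Of values above 0, 83.7% were not whole (tolerance 0.001), while 99.1% of genes had a whole sum over the libraries, and how reads were divided between libraries was not tested. Of the 8 meiosis genes above 0 in any library, 4 had whole values in each. In the authors' code a read joins a gene when they overlap by 5% or more, and strand is ignored. A column repeated in a combined table for 3 libraries was identical to the library's own file.

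Estimated counts were rounded and genes with a sum of 5 or more were tested by the quasi-likelihood test of edgeR 4.0.16 in R 4.3.3, with stage alone in the model. The study's methods give edgeR with quantile scaling, for which upper-quartile factors were taken. A gene was called at a Benjamini-Hochberg adjusted p below 0.05 and a fold change above 2. No gene had a separate variance estimate (infinite prior degrees of freedom), with a common coefficient of variation of 14.6%. SEs were derived from the fold change and its F statistic. For a stage with at most 3 counts in both libraries, a bound on the fold was taken against 3 counts per library. Only the bound of *SPL*, at 0 in both seedling libraries, is given in the text. For *ASY1*, *TAM*, *UVI4*, *ASY4* and *CYCB2;2*, which also had such a stage, fitted values are given without the bound. Folds were omitted if neither stage passed 3 counts. Alternatives were DESeq2 1.42.0, limma-voom 3.58.1, the edgeR exact test, other scalings, filters and fold limits, unrounded counts, a replicate block and each library left out.

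Genes were matched to RefSeq TAIR10.1, and promoters and coding sequences were read from that genome and annotation, where ready-made promoter and protein tables had been planned. Coding sequences were aligned with mafft 7.526 and copies searched with blastn 2.17.0 (a minimum of 95% identity across 80% of the length). The text names the 10 genes, the genes of the further meiosis and mitotic lists that were called, up to 6 partners or relatives of the 10 (1 of which is not reported here), the 5 genes nearest in level, and neighbours for their position. The list examples *MSH5*, *MER3* and *ZIP4*, the genes not analysed here and the marker genes are named beside this rule. The members and lists were chosen with earlier results of these data known.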

Additional observations from a re-analysis of the deposited data

How the results depend on the processing

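None of the 10 meiosis genes was called under any of the 15 alternatives, and with at least 10 counts in each library none was left to test. The log2 fold changes of *ASY1* and *OSD1* stayed negative under every alternative that gave a value, at -2.32 to -1.03 and -1.20 to -0.67 with 1 library left out. Without seedlings replicate 1, *ASY1* did not pass the count filter and gave no value. That library held all of the seedling counts of *ASY1* (5.62, against 0 in seedlings replicate 2), so its direction rested on 1 library. Those of *DMC1* ranged from -0.092 to 1.35 and those of *TAM* from -0.47 to 1.37, with the sign turned without seedlings replicate 2 (-0.092 for *DMC1* and -0.18 for *TAM*) and, for *TAM*, without floral buds replicate 2 (-0.47). Over all genes 3687 were called, against 1965 by DESeq2, 1037 with at least 10 counts in each library, 2126 against a fold change of 2 (glmTreat), and 2906 to 3307 with 1 library left out.

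Of the further meiosis genes, 3 were called higher, against 0 by DESeq2, 0 by limma-voom, 0 with at least 10 counts in each library, 1 by glmTreat and 1 to 2 with 1 library left out. Of these, 1 was called lower, against 0 by DESeq2, limma-voom, the fit with no count filter and that with at least 10 counts in each library, and 0 to 2 with 1 library left out. Of the mitotic genes, 4 were called higher, against 0 by DESeq2, 0 by limma-voom, 1 with at least 10 counts in each library, 0 by glmTreat and 1 to 4 with 1 library left out. The replicate numbers came from different plants in the 2 stages, and same-numbered libraries did not deviate together (Pearson's r = -0.049 across 18647 genes, which are not independent replicates). With a replicate block 3095 genes were called over all genes, 2 further meiosis genes higher and 0 lower, 3 mitotic genes higher, and 0 of the 10. Fewer genes were tested where the filter was stricter or a library was left out, and the cause of the other changes was not tested. Depth limits these values: at 579416 to 796885 counts per library a gene listed at 0 could have a level of up to 3.73 to 5.28 normalized CPM, and 6 of the 10 genes had at most 3 counts in every library.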
